A study of Mus musculus with 4 samples.

Results

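The replication-dependent histone genes lie in the Hist1 to Hist4 clusters, and 69 of them were examined here among 51905 genes with RNA-seq values. They were chosen by name alone, as every gene whose symbol begins with Hist1h, Hist2h, Hist3h or Hist4h, without the 1 symbol ending in -ps. The 69 members comprised 6 genes for histone H1, 20 for H2A, 18 for H2B, 12 for H3 and 13 for H4, and by symbol 56 belong to Hist1, 10 to Hist2, 2 to Hist3 and 1 to Hist4. The GENCODE vM39 annotation lists 2 of the H2A members as pseudogenes, Hist1h2aj and Hist1h2al. Hist1h2al, at GRCm38 chr13:51202698-51203065, lies outside the Hist1 cluster. RNA was sequenced from the mouse colorectal cancer lines CT26 and MC38, both labelled as genotype WT. Each line had been infected with a lentivirus that carries a short hairpin RNA, either lenti-shmaurka-1 against Aurora-A, a mitotic kinase encoded by Aurka, or lenti-shGFP as the control. Cells were harvested 48 h after seeding. Each condition had 1 library and Aurora-A was targeted by 1 hairpin. Differences within a line are thus unreplicated, and an effect of that hairpin and an effect of Aurora-A loss cannot be told apart.

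The libraries held between 22207783 and 23752231 fragments, recovered from the deposited counts as described under the processing. The floor used below is 3 fragments, the one-sided limit that a count of 0 allows, which is 0.126 to 0.135 CPM (fragments scaled to a library of 1000000) here. Intervals are exact 2-sided 95% intervals that cover counting error only. The targeted gene Aurka went from 5724 to 1093 fragments with the knockdown in CT26 and from 2300 to 413 in MC38. CT26 is labelled as a fibroblast and MC38 as an epithelial cell. The epithelial markers Epcam, Cldn3, Cldn4 and Cldn7 were at or under the floor in all 4 libraries. Of the 11 epithelial markers, 5 and 4 passed the floor in the CT26 libraries and 4 in each MC38 library. Their sums were 1996 and 1724 fragments in CT26, of which Krt18 gave 1516 and 1485, and 82 and 69 in MC38. Vil1 was at 0 in CT26 and had 38 and 29 fragments in MC38, and Cdh1 had 1 and 2 in CT26 and 6 and 4 in MC38. Others went the opposite way. Krt20 had 434 and 205 fragments in CT26 and 2 and 0 in MC38. Cdx2 had 14 and 3 in CT26 and 0 in MC38, and Krt19 had 6 and 13 in CT26 and 1 and 2 in MC38. The 9 fibroblast markers summed to 18598.5 and 16728 fragments in CT26, of which Col1a2 gave 12155.9 and 11459, and to 7628 and 7354 in MC38, of which Col1a2 gave 1426 and 1396. Col3a1 and Pdgfra were higher in MC38.

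Replication-dependent histone genes supply the proteins that package newly copied DNA, and their mRNAs accumulate in S phase and are degraded when DNA synthesis stops. Histones H2A, H2B, H3 and H4 form the nucleosome core, and the linker histone H1 binds where DNA enters and leaves it. Their mRNAs are unusual in ending at a conserved stem-loop, bound by the protein SLBP, rather than in a poly(A) tail. Some of these genes can also make longer polyadenylated transcripts from a signal downstream of the stem-loop, for instance in cells that have stopped dividing. Several histone variants encoded outside the clusters, such as H3.3, are made throughout the cell cycle from ordinary polyadenylated mRNAs.

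The stem-loop was sought in the 150 bases after the stop codon on the GRCm39 genome with the GENCODE vM39 annotation, as the 16-base pattern GGNNCTNNNNAGNNCC in which the first 6 bases pair with the last 6, on the coding strand. Of the 69 members, 67 were in that annotation and 65 had a stop codon with such a window. The pattern was present in 60 of the 65, or 92.3%, against 13 of 21591 other coding genes (0.0602%), of which 6 carry histone names. It began 21 to 58 bases after the stop codon, with a median of 31. All 6 H1, 12 H3 and 13 H4 genes held it, together with 17 of 18 H2A and 12 of 16 H2B genes. The 5 without it were Hist1h2an, Hist1h2bp, Hist1h2bq, Hist1h2br and Hist2h2be. The absence says only that these letters are not in the window. The sequences below, from the 3′ untranslated region and written with T for U, are those of the leading members of each type and of the main H4 forms, with the stem and loop in capitals and 5 bases on each side.

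Hist1h1c, GRCm39 chr13:23923490-23923515, plus strand: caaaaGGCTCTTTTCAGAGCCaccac
Hist3h2a, GRCm39 chr11:58845993-58846018, plus strand: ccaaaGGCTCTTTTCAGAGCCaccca
Hist1h2bc, GRCm39 chr13:23868625-23868650, plus strand: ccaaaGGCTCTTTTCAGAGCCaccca
Hist1h3e, GRCm39 chr13:23746072-23746097, minus strand: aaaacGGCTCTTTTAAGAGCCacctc
Hist1h4i, GRCm39 chr13:22225131-22225156, minus strand: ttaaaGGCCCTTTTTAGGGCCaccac
Hist2h4, GRCm39 chr3:96170250-96170275, minus strand: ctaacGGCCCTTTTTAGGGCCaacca
Hist1h4n, GRCm39 chr13:22015963-22015988, minus strand: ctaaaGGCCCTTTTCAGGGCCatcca

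The sequence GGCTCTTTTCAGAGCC was the commonest form, present in 36 members (5 H1, 15 H2A, 8 H2B and 8 H3), and it is the form of Hist1h1c, Hist3h2a and Hist1h2bc. The form of Hist1h3e, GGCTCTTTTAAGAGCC, was present in 9 members of types H1, H2A, H2B and H3. The H4 genes differed from these in the stem. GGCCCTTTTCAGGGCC, shown for Hist1h4n, was present in 8 members, all of them H4 genes. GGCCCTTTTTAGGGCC was present in Hist1h4i and Hist2h4, and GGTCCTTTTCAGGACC in 2 further H4 genes. The commonest form was also carried by members with no fragments in any library, such as Hist1h2aa and Hist2h3c2.

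Most members had few or no fragments. Of the 67 annotated members, 25 share more than 50% of their 100-base stretches with another member. These include 21 of the 46 annotated members at or under the floor in every library, among them 5 of the 12 at 0. The part of near copies in these counts was not tested. Of the 69, 12 were at 0 in all 4 libraries, 36 more were above 0 but at or under the floor in every library, and 21 passed the floor in at least 1. Those above the floor numbered 20 in CT26 shGFP, 15 in CT26 shmaurka-1, 7 in MC38 shGFP and 8 in MC38 shmaurka-1. The 12 at 0 throughout were Hist1h1t, Hist1h2aa, Hist1h2ah, Hist1h2ai, Hist1h2an, Hist1h2ba, Hist1h2bf, Hist1h2bp, Hist1h2br, Hist2h2ab, Hist2h3c2 and Hist4h4. Hist1h1t, Hist1h2aa and Hist1h2ba are known as testis histones. Members above the floor in all 4 libraries were Hist1h1c, Hist1h2ap, Hist1h2bc, Hist1h4i, Hist2h2be and Hist3h2a. No H3 gene was among them.

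All members together held 350 fragments in CT26 shGFP, 315.2 in CT26 shmaurka-1, 478 in MC38 shGFP and 624.4 in MC38 shmaurka-1. This was 14.7, 14.2, 20.9 and 27.4 CPM. The 5 members with the highest mean count, Hist1h1c, Hist1h4i, Hist3h2a, Hist2h2be and Hist1h2bc, held 56.9% and 62.5% of these in the CT26 libraries and 90.4% and 91.9% in the MC38 libraries. Per length, as deposited FPKM (fragments scaled to gene length and library size), the 69 members summed to 25, 24.3, 21.5 and 27.3 in the same order of libraries. The 11 variant genes outside the clusters summed to 1654, 1538, 2136 and 2333 FPKM. H3f3b alone, which encodes H3.3, was at 945 and 760 FPKM in CT26 and 1055 and 1239 in MC38, while the highest member in any library was Hist1h4i at 10.9 FPKM in MC38 shmaurka-1. Whether the RNA was selected by its poly(A) tail is not given in the sources used here, and the part of such a selection in these low values was not tested.

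**Figure D1:**
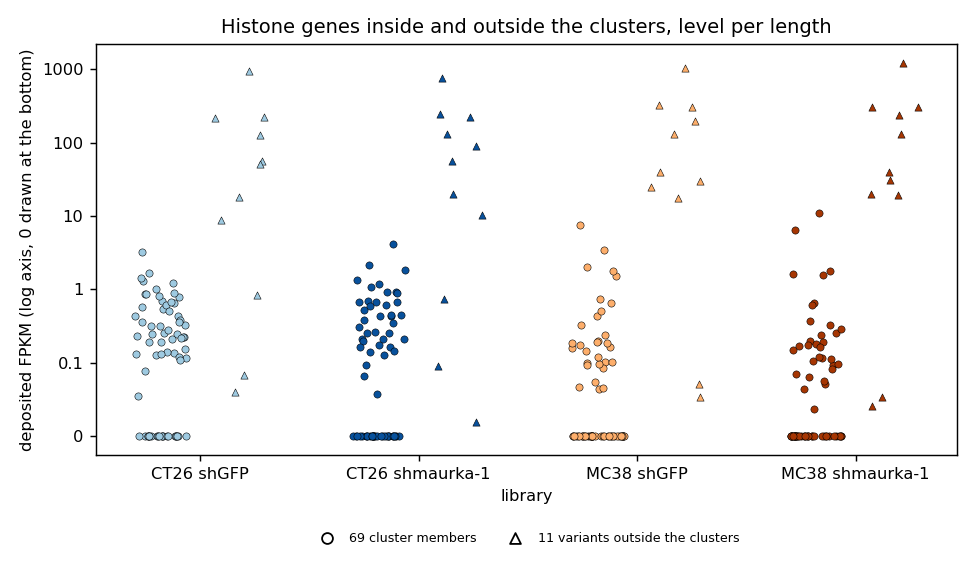
Deposited FPKM (log axis, with 0 drawn at the bottom) of the 69 cluster members (circles) and of 11 variant genes outside the clusters (triangles) in each library. The highest member reached 10.9 FPKM, and H3f3b lay between 760 and 1239 FPKM.

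Fragments were concentrated in members with a polyadenylation signal at an annotated end, although the median FPKM of all such members was not higher. A gene was counted as having a polyadenylation hexamer where AATAAA or ATTAAA stood in the last 50 bases of any of its transcripts, on the transcript strand. This held for 20 of the 67 annotated members, and 5 of these 20 were above the floor in all 4 libraries, against 1 of the 47 without a hexamer. The 20 held 232 and 221 fragments in CT26 and 443.3 and 589.4 in MC38. The 47 held 117 and 93.2 in CT26 and 34.7 and 35 in MC38. All 5 of the members with the highest mean count were among the 20. The annotated gene end lay 840 bases past the stem-loop printed above for Hist1h1c, 330 for Hist1h4i, 1643 for Hist3h2a and 9518 for Hist1h2bc. These are distances on the genome, with any introns included, and the longest annotated transcript of Hist1h2bc has 2414 bases. Of the 60 members with a stem-loop, 19 ended before it or within 20 bases of it and 24 ended more than 100 bases past it. These ends come from vM39, while the fragments were counted on other gene models. Hist1h1d, for example, ends 4884 bases past its stem-loop in vM39 but has a deposited locus of 744 bases. Some members with a hexamer had no fragments, since 4 of the 20 were at 0 in all libraries, and the median of mean FPKM was 0.085 over the 20 and 0.113 over the 47. A longer gene also collects more fragments at the same level, so only FPKM compares these genes.

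**Figure D2:**
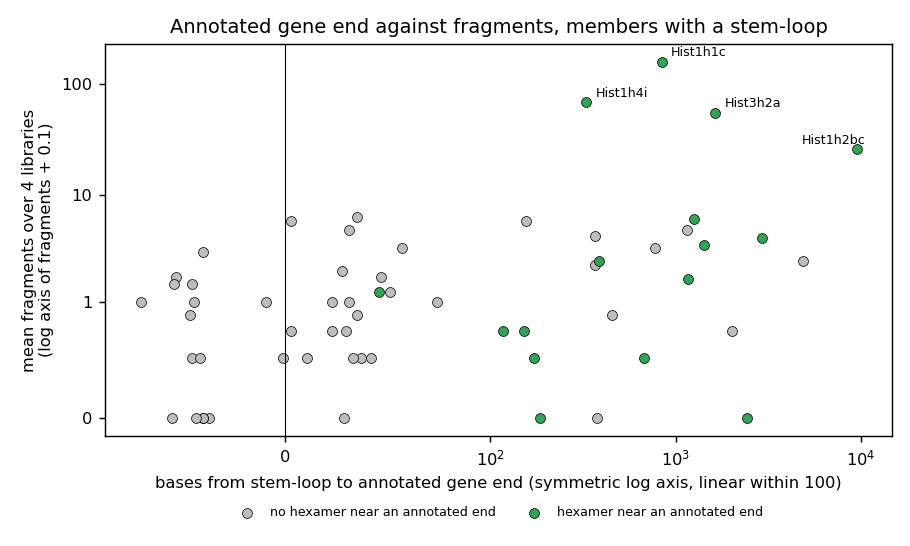
Mean fragments over the 4 libraries (log axis of fragments + 0.1) against the distance from the stem-loop to the annotated gene end, in bases of the genome on a symmetric log axis, for the 60 members with a stem-loop. Green points had a hexamer near an annotated end, and the 4 named members, all green, ended 330 to 9518 bases past the stem-loop.

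Each knockdown library was compared with its shGFP control. Fold changes were computed from TMM-normalized counts with 1 count added, where TMM is edgeR's scaling between libraries. Genes had to average 10 counts or more within both lines, which 4 of the 69 members and 11928 genes in all passed. The 4 were Hist1h1c, Hist1h2bc, Hist2h2be and Hist3h2a. In CT26, 0 of the 4 were more than 1.5-fold higher, against 3.2% of all genes tested, and 0 were less than 0.6-fold, against 2.58%. In MC38, 1 of the 4, Hist1h1c, was more than 1.5-fold higher, against 2.47% of all genes, and 0 were less than 0.6-fold, against 1.03%. The median log2 fold change of the 4 was 0.034 in CT26 and 0.028 in MC38, beside -0.005 and -0.001 for all genes tested. These medians rest on the filter. At 3 counts, with 7 members, they were -0.188 and 0.214, and at 50 counts, with Hist1h1c alone, they were 0.255 and 0.880. The effect shared by the lines was assessed by the quasi-likelihood test of edgeR, blocked on the line, so the 2 lines are the only replication. The test called 0 of the 4 higher, against 1.67% of all genes, and 0 lower, against 1.12%, after Benjamini-Hochberg adjustment. At an unadjusted p under 0.05 there was 1 member, Hist1h1c, by edgeR and 1 by limma voom, and 0 by DESeq2, against 12.3%, 11% and 4.17% of all genes. Adjusted calls numbered 0 by each tool. With 4 members tested, these counts do not describe the other 65.

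**Figure D3:**
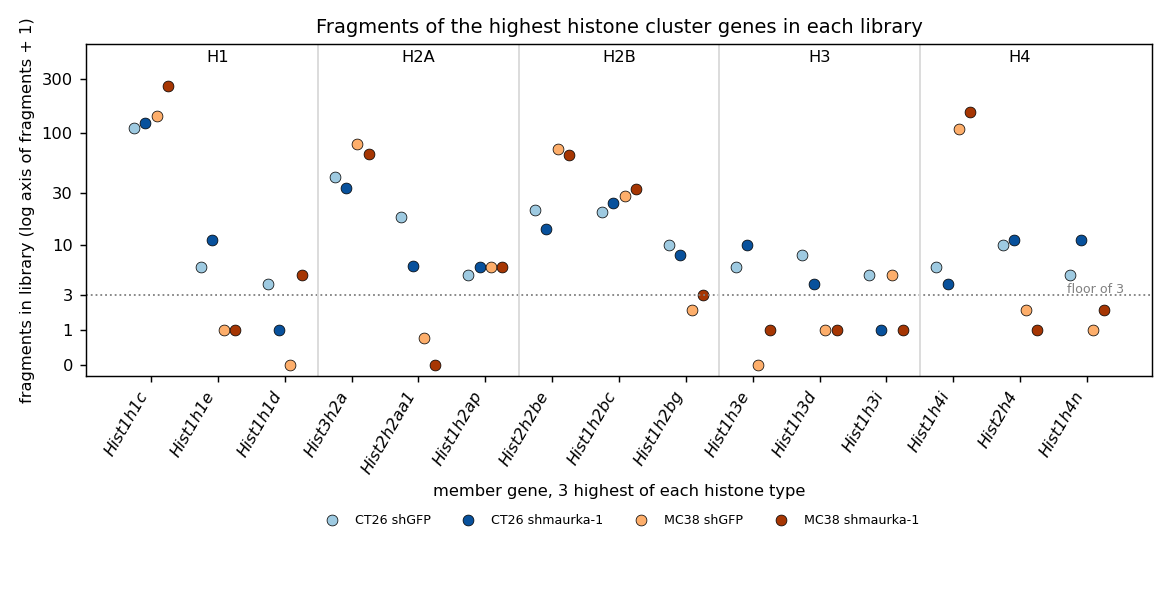
Fragments in each of the 4 libraries (log axis of fragments + 1) for the 3 members of each histone type with the highest mean count, with the floor of 3 fragments dotted. Hist1h1c is highest in MC38 shmaurka-1 at 257 fragments, Hist1h4i has 109 and 155 fragments in MC38 and 6 and 4 in CT26, and every H3 point lies at or under 10.

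Among the linker histones, Hist1h1c was the member with the most fragments. It encodes H1.2, lies at GRCm38 chr13:23738808-23740367 and shares 5.07% of its 100-base stretches with other members. It had 111 fragments in CT26 shGFP, 122 in CT26 shmaurka-1, 142 in MC38 shGFP and 257 in MC38 shmaurka-1. The MC38 knockdown library stood above the other 3, which lay close together. In CT26 this was a log2 fold change of 0.26 (-0.13 to 0.64), and in MC38 one of 0.88 (0.58 to 1.19), a 1.84-fold difference in MC38. In FPKM it stood at 3.26 and 4.11 in CT26 and 3.45 and 6.36 in MC38. The effect common to both lines had an adjusted p of 0.129 by edgeR, and from 0.112 to 1 over the alternatives. The 2 intervals overlap, and a difference between the lines in this effect has no test in this design.

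The other H1 genes were near the floor. Hist1h1e, which encodes H1.4, had 6 and 11 fragments in CT26 and 1 in each MC38 library. Hist1h1d, which encodes H1.3, had 4 and 1 in CT26 and 0 and 5 in MC38. All 6 H1 genes summed to 123 and 134 fragments in CT26, a log2 fold change of 0.24 (-0.12 to 0.61), and to 143 and 265 in MC38, a log2 fold change of 0.91 (0.62 to 1.22). Hist1h1c made up all but 12 of the H1 fragments in each CT26 library and all but 1 and 8 in MC38, so this gene dominates the H1 sum. The other 5 H1 genes went from 1 to 8 fragments in MC38, a log2 fold change of 2.13 (0.13 to 8.50).

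Hist3h2a was the H2A gene with the most fragments in every library. It had 41 and 33 fragments in CT26 and 80.3 and 65.6 in MC38, lower in the knockdown library of each line. The log2 fold change was -0.19 (-0.90 to 0.51) in CT26 and -0.26 (-0.74 to 0.24) in MC38, with an adjusted p of 0.874, so neither differed beyond counting error. The deposited locus of Hist3h2a, GRCm38 chr11:58954685-58978050, also spans Trim17 and 3 other genes, and its fragment values in MC38 are not whole. Hist2h2aa1 had 18 and 6.2 fragments in CT26, and 0.7 and 0 in MC38. Its log2 fold change in CT26 was -1.30 (-3.09 to -0.07), but 88.1% of its 100-base stretches occur in another member, so the value is uncertain. With Hist2h2aa2, all of whose stretches are shared, the pair had 21 and 6.2 fragments in CT26. Hist1h2ap had 5 and 6 fragments in CT26 and 6 in each MC38 library, and shares 92.2% of its stretches. All 20 H2A genes summed to 87 and 61.2 fragments in CT26 and to 95 and 75.6 in MC38. The log2 fold changes of these sums were -0.38 (-0.89 to 0.10) and -0.30 (-0.75 to 0.16).

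Of the H2B genes, Hist2h2be at GRCm38 chr3:96221119-96223738 and Hist1h2bc at GRCm38 chr13:23684199-23692488 were tested. Hist2h2be had 21 and 14 fragments in CT26 and 73 and 64 in MC38. Its log2 fold change was -0.44 (-1.55 to 0.58) in CT26 and -0.16 (-0.67 to 0.34) in MC38. Hist1h2bc had 20 and 24 fragments in CT26 and 28 and 32 in MC38. Its log2 fold change was 0.37 (-0.53 to 1.32) in CT26 and 0.21 (-0.56 to 1.01) in MC38. Both genes had an adjusted p of 0.852 by edgeR, and each pair of libraries differed by less than counting error. Hist1h2bg, the next by mean count, had 10 and 8 fragments in CT26 and 2 and 3 in MC38. The 18 H2B genes summed to 65 and 57 fragments in CT26 and 107 and 109 in MC38, with log2 fold changes of -0.07 (-0.61 to 0.47) and 0.06 (-0.34 to 0.46).

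No H3 gene reached the mean of 10 counts in both lines. Hist1h3e had 6 and 10 fragments in CT26 and 0 and 1 in MC38, and Hist1h3d had 8 and 4 in CT26 and 1 in each MC38 library. Hist1h3i had 5 fragments in each shGFP library and 1 in each knockdown library. Its log2 fold changes of -1.55 and -1.51 had intervals of -7.77 to 0.96 and -7.86 to 0.87, which shows how little such counts can resolve. The 12 H3 genes summed to 38 and 24 fragments in CT26 and to 11.9 and 6.7 in MC38. The log2 fold change of the sum was -0.53 (-1.34 to 0.23) in CT26 and -0.71 (-2.33 to 0.71) in MC38, and both intervals included 0. Without Hist1h3e, the H3 gene with the highest mean count, the CT26 sum went from 32 to 14 fragments, a log2 fold change of -1.03 (-2.09 to -0.13), an interval that lies below 0. The H3 result in CT26 thus depends on 1 gene of few fragments.

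Among the H4 genes, Hist1h4i at GRCm38 chr13:22040636-22041362 held most fragments in MC38 and few in CT26. It had 6 fragments in CT26 shGFP, 4 in CT26 shmaurka-1, 109 in MC38 shGFP and 155 in MC38 shmaurka-1. The CT26 values were just above the floor, and both MC38 values were far above them. The log2 fold change was -0.39 (-2.73 to 1.61) in CT26 and 0.53 (0.18 to 0.90) in MC38. In MC38 the interval held only higher values, below the 1.5-fold threshold at 1.45-fold. Its CT26 counts kept it out of the filter in each line. Under that filter it has no test of the effect shared by the lines. Other filters admit Hist1h4i through its MC38 counts alone, so fits under them are not read as a test of that effect either. Hist2h4, with the same stem-loop, had 10 and 11 fragments in CT26 and 2 and 1 in MC38. Hist1h4n had 5 and 11 in CT26 and 1 and 2 in MC38. The 13 H4 genes summed to 37 and 39 fragments in CT26, a log2 fold change of 0.19 (-0.49 to 0.89), and to 121 and 168 in MC38, a log2 fold change of 0.50 (0.16 to 0.85). Without Hist1h4i the MC38 sum was 12 and 13 fragments, with a log2 fold change of 0.13 (-1.10 to 1.41). The other 12 H4 genes were then lower in MC38, at 0.524 and 0.57 CPM, than in CT26, at 1.31 and 1.58 CPM.

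**Figure D4:**
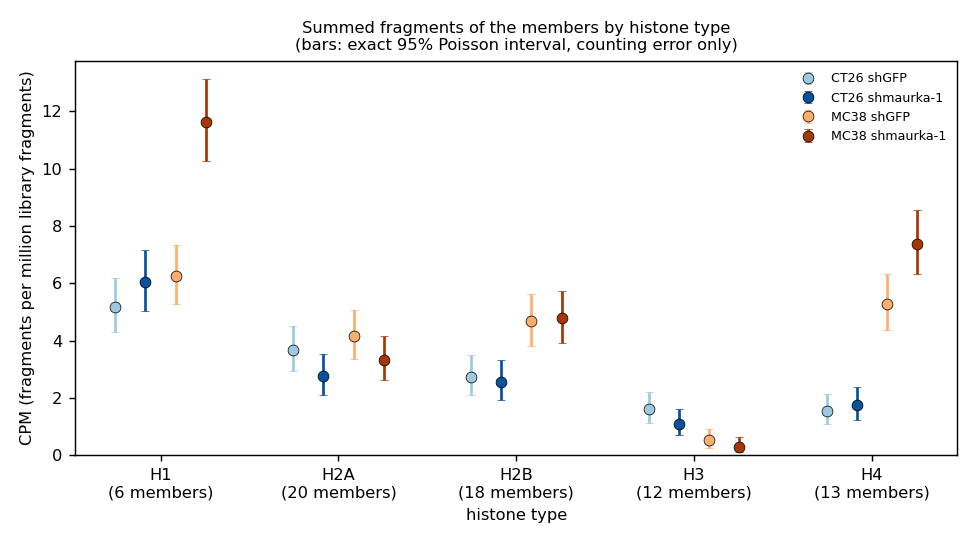
Summed fragments of the members in CPM by histone type in each library, with exact 95% Poisson intervals. H1 is highest in MC38 shmaurka-1 at 11.6 CPM, H4 is higher in both MC38 libraries than in CT26 through Hist1h4i alone, and H3 lies below 2 CPM in every library.

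Summed over all 69 members, the log2 fold change was -0.03 (-0.26 to 0.19) in CT26 and 0.41 (0.24 to 0.59) in MC38. Without the 5 members with the highest mean count, the other 64 summed to 151 and 118.2 fragments in CT26 and to 45.7 and 50.7 in MC38. Their log2 fold changes were -0.23 (-0.60 to 0.12) and 0.18 (-0.43 to 0.79), so the interval in MC38 then held no change. The intervals compare 2 libraries each, and variation between cultures is not covered by them. In RNA from a whole culture, a change in level per cell and a change in the share of cells in S phase cannot be told apart.

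**Figure D5:**
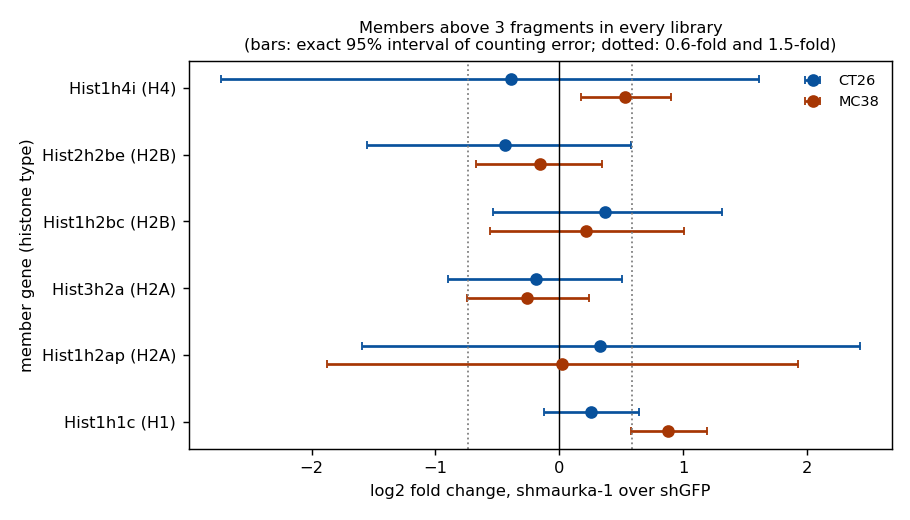
Log2 fold change of shmaurka-1 over shGFP in CT26 (blue) and MC38 (brown) for the 6 members above 3 fragments in every library, with exact 95% intervals of counting error and dotted lines at 0.6-fold and 1.5-fold. The intervals of Hist1h1c (0.58 to 1.19) and Hist1h4i (0.18 to 0.90) in MC38 lie above 0, and the other 10 intervals include it.

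The levels of some members also differed between the lines. This comparison was added after the data were seen, from the line term of the same edgeR model over the 11928 genes. Of the 4 members tested, 3 were higher in MC38 and 0 were lower, against 36.7% and 36.6% of all genes. Hist2h2be was 3.3-fold higher (log2 difference 1.72, adjusted p of 2.46e-06 by edgeR). Hist3h2a at a log2 difference of 0.69 and Hist1h1c at 0.45 had adjusted p-values of 0.0338 and 0.0427 by edgeR, and Hist1h2bc at 0.18 had 0.696. With genes filtered on a mean over all 4 libraries, the adjusted p-values of Hist3h2a and Hist1h1c were 0.0637 and 0.0802 by edgeR, so only Hist2h2be was called under both filters. Scaling to library totals instead of TMM raised the difference of Hist1h1c to 0.75 (adjusted p of 0.000669 by edgeR). For Hist1h1c the line difference was smaller than the knockdown difference within MC38. The line term averages over both hairpins. In the shGFP libraries alone Hist1h1c stood at 3.26 FPKM in CT26 and 3.45 in MC38. In the shmaurka-1 libraries it stood at 4.11 and 6.36, so most of its line difference lies there. Hist1h4i was 20.6-fold higher in MC38 (log2 difference 4.37) in a fit it entered only through its MC38 counts, so this is given as a description with no test.

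Members with few fragments showed the opposite order. Above the floor in both CT26 libraries and in neither MC38 library were 8 members, namely Hist1h1e, Hist1h2bg, Hist1h3d, Hist1h3e, Hist1h4d, Hist1h4n, Hist2h2aa1 and Hist2h4, and 0 members had the reverse pattern. Of all 51905 genes, 0.927% had the CT26 pattern and 3.44% the MC38 pattern, or 2.71% and 10.1% of the 17729 genes above the floor in at least 1 library, against 8 and 0 of 21 members. The 64 members outside the 5 highest held 6.36 and 5.32 CPM in CT26, and 1.99 and 2.22 in MC38. Each of the 8 had between 4 and 18 fragments in CT26 and at most 3 in MC38. These are counts of single libraries near the floor, given as a description, and each line is 1 stock of cells.

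The genes that make and process histone mRNAs were examined next. The list of 23 such genes holds activators of histone transcription, the processing machinery and the degradation machinery, and all 23 were tested. Called higher were 0 and called lower 0 by edgeR. The median log2 fold change was 0.094 for CT26 and 0.027 for MC38. At an unadjusted p under 0.05 there were 3 by edgeR, 1 by DESeq2 and 2 by limma voom, and DESeq2 and limma voom also called 0. The shares of all genes at that threshold are those given for the members. The lowest adjusted p of the list was 0.0581 by edgeR, for E2f1, an activator of S-phase genes, with 1097 and 1203 fragments in CT26 and 2116 and 2779 in MC38. Slbp, whose protein binds the stem-loop, had 1424 and 1414 fragments in CT26 and 2706 and 2299 in MC38, log2 fold changes of 0.11 and -0.21 with an adjusted p of 0.931 by edgeR. Npat, a coactivator of histone genes, had 728 and 747 fragments in CT26 and 2216 and 1855 in MC38, with log2 fold changes of 0.16 and -0.23. These 3 genes were named with their values known. Of 24 histone chaperones, 0 were called in either direction by any of the 3 tools, with medians of 0.114 and 0.019, and 4 had an unadjusted p under 0.05 by edgeR.

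Genes of DNA replication, whose mRNAs also peak around S phase, were examined in the same way. Of 35 listed, 33 were tested, and 3 were called higher and 0 lower by edgeR, against 1.67% and 1.12% of all genes, with medians of 0.164 in CT26 and 0.088 in MC38. Rrm2, a subunit of ribonucleotide reductase, had 3291 and 4418 fragments in CT26 and 5699 and 7420 in MC38, a change of 0.55 and 0.41 on the log2 scale (adjusted p of 0.000157 by edgeR). Cdc6, which loads the replicative helicase, had 437 and 590 fragments in CT26 and 1339 and 1806 in MC38, or 0.55 and 0.46 on the log2 scale (adjusted p of 0.00468 by edgeR). Rfc5, a subunit of the clamp loader, had 867 and 985 fragments in CT26 and 2292 and 3001 in MC38, or 0.31 and 0.42 on the log2 scale (adjusted p of 0.04 by edgeR). The value was positive in both lines for all 3 genes, which a call of the shared effect favours by itself. Of the 33 tested, 28 were above 0 in CT26 and 26 in MC38, beside 5867 and 5954 of all 11928 genes. DESeq2 called 0 genes of the list and limma voom 2, where they called 0.243% and 2.24% of all genes.

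Of the 11 variant genes outside the clusters, 8 were tested and 0 were called in either direction by any of the 3 tools, with 1 at an unadjusted p under 0.05 by edgeR. Their medians were -0.001 in CT26 and 0.007 in MC38. H2afz, which encodes H2A.Z, was at 227 and 246 FPKM in CT26 and 331 and 307 in MC38. H3f3a, the other H3.3 gene, was at 218 and 222 FPKM in CT26 and 305 and 308 in MC38. H2afj was at 0.0684 and 0.0896 FPKM in CT26 and at 30.1 and 30.9 in MC38, a difference between the lines of the kind seen for the member Hist1h4i.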

How the data were processed

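CT26 and MC38 RNA, from shGFP and shmaurka-1 cells, was made into 4 libraries with a strand-specific kit. The submitters' processing notes name Trimmomatic 0.36, HISAT2, Cufflinks 2.2.1, Cuffdiff and GRCm39. The coordinates of the files are nevertheless those of GRCm38, since all 69 members overlapped their namesakes in a GRCm38 RefSeq table and 0 of the 67 named in GENCODE vM39 overlapped it on GRCm39. The authors deposited expected counts, scaled by a single factor per library, and FPKM values for 51905 genes. Dividing the counts of each library by its most frequent nonzero value gave whole fragments within 0.05 for 97% to 97.6% of nonzero values. Expected counts were rounded to whole numbers for edgeR 4.0.16, DESeq2 1.42.0 and limma 3.58.1 (R 4.3.3).

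The name rule for the members uses no values, but it and the gene lists were set with earlier results of these data known. Named were the 3 members of each type with the highest mean count, members called or past a fold threshold, and called genes of the lists. Fold changes used TMM-scaled counts with 1 count added. Intervals of fold changes, those of sums included, are conditional binomial intervals on fragments. Intervals of the summed fragments within a library are Poisson intervals. The edgeR test had 1 residual degree of freedom and an estimated prior that was infinite, so the spread was taken from all genes, and it was tested on simulated data. Shared stretches were counted as 100-base runs of GRCm39 transcripts found in another member. How fragments matching several genes were divided is not given in the sources used here. Stem-loops were read from GRCm39, in Python 3.11.15 with pandas 2.3.3, numpy 2.4.6 and scipy 1.17.1. Alternatives covered scaling, added count, filter, unit and test.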

Additional observations from a re-analysis of the deposited data

Results flagged for a closer look

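Among the 8 variant genes outside the clusters that were tested, 4 moved in opposite directions in the lines, with counting intervals on opposite sides of 0 in CT26 and MC38. The same held for 889 of the 11928 genes tested (7.45%), and intervals of counting error narrow as counts rise, so genes with many fragments meet this criterion more readily. No test was made of this difference between lines, since 1 library per condition leaves no replicate for it. Cenpa, which encodes the centromeric H3 variant, changed by 0.773 on the log2 scale in CT26 (1239 and 1948 fragments) and -0.272 in MC38 (709 and 575). H3f3b had -0.291 in CT26 and 0.230 in MC38. H1f0, a linker histone of non-dividing cells, had -0.114 and 0.255. H2afz had 0.087 and -0.114. No cluster member met the same criterion.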

How the results depend on the processing

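Of the alternative values of the comparisons, 5 moved and 63 did not, where a count moved if it changed by more than 1.5 times and a median if it changed sign or by more than 1 SD over the members, and all 50 alternative values of the named members stayed within their counting intervals. Lowering the filter from 10 to 3 counts gave 2 members more than 1.5-fold higher in MC38 instead of 1, the added one being Hist1h2be with 2 and 7 fragments, and turned the median log2 fold change of the members in CT26 from 0.034 to -0.188. Raising it to 50 counts left Hist1h1c alone and gave a median of 0.880 in MC38 instead of 0.028. Within 1 SD, the medians still went from 0.034 to 0.255 in CT26 at 50 counts and from 0.028 to 0.214 in MC38 at 3 counts. The count of members higher in MC38 than in CT26, Hist1h4i left aside, was 3, and it was 1 with edgeR's own filter on low counts and 1 with a mean of at least 10 over all 4 libraries. The main filter left 65 of the 69 members untested. Leaving out a library would leave no residual degrees of freedom for the shared effect, so no such test was made.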
